A study of Mus musculus with 20 samples.

Results

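The nuclear genes for the subunits of respiratory complexes I, III and IV and of ATP synthase, also called complex V, were followed in the visceral adipose tissue of mice under a high-fat diet. They were taken by name from the array: every gene name that starts with Ndufa, Ndufb, Ndufc, Ndufs or Ndufv and a digit, with Uqcr, with Cox and a digit from 4 to 8, or with Atp5, and in addition Ndufab1 and Cyc1. Of 82 such names, 81 were kept because at least 1 probe was well above background on 6 or more of the 20 arrays, and Cox8c, with 1 probe above background on 2 arrays, was not. The 81 genes are 38 names of complex I, 9 of complex III, 16 of complex IV and 18 of complex V, out of 25619 genes tested. Each of them was well above background on all 20 arrays. The rule uses names and detection, not a measured difference, although it was set with earlier results of these data known. The names take in a few genes that are not ordinary subunits: Atp5c1-ps is annotated as a pseudogene of Atp5c1, Atp5s and Atp5sl are listed by RefSeq as Dmac2l and Dmac2, and Ndufa4, counted here with complex I for its name, is now known as a subunit of complex IV.

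The respiratory chain sits in the inner mitochondrial membrane. Complexes I, III and IV pass electrons from NADH to oxygen and pump protons as they do so, and ATP synthase lets the protons flow back to make ATP. Most subunits are encoded in the nucleus and a small set, which holds part of the catalytic core, in mitochondrial DNA. White adipocytes hold fewer mitochondria than brown ones, and use them for fatty acid synthesis, triglyceride turnover and adipokine secretion as well as for ATP.

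The RNA came from epididymal fat of male C57bl/6J mice of the third generation, and each array was hybridized with the Cy3-labelled RNA of 1 mouse. The Ref group (6 mice) and the HFoleic group (6 mice) belonged to a control lineage whose growing diet was supplemented with high-oleic sunflower oil, and the HFepa group (8 mice) to an omega 3 lineage that received fish oil rich in eicosapentaenoic acid in its place. The Ref group was then fed a low-fat reference diet for some months, whereas HFoleic and HFepa mice were fed the same high-fat, high-sucrose diet. No transgene or engineered deletion is named for these mice, and the RNA had passed a limit on its integrity. HFoleic vs. Ref therefore differ in the diet, HFepa vs. HFoleic in the lineage, and HFepa vs. Ref in both, which cannot be told apart in that comparison. How many litters the mice of a lineage came from is not given in the sources used here.

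All 11 markers of white adipocytes were well above background on the arrays. In HFoleic vs. Ref 4 of them were lower, Lipe (−1.19), Retn (−0.65), Cfd (−0.50) and Pnpla2 (−0.42), and Lep was higher (1.13), with a median of −0.23. The rest were not called: Adipoq (−0.03), Cidec (0.02), Fabp4 (0.02), Plin1 (−0.33), Plin4 (−0.20) and Pparg (−0.23). The summed intensity of the 11 markers was 2035212 to 2251968 in Ref (median 2152635), 1674726 to 2184032 in HFoleic (median 1808642) and 1676289 to 2217133 in HFepa mice (median 2083320). The arrays lay on 3 slides, each with mice of every group, and the share of spots well above background ran from 66.06% to 71.88% per array. The summed intensity of 11 macrophage markers ran from 70092 to 107132 in Ref, from 164585 to 343413 in HFoleic and from 76614 to 345261 in HFepa mice, where HFepa 1 and HFepa 6 (292275) stood above the others (at most 152173). Of these markers 9 were higher in HFoleic than in Ref, and none was called in HFepa vs. Ref. HFepa 7 stood apart by its brown and beige adipocyte markers, and Ref 3, Ref 6, HFoleic 5 and HFepa 4 by testis transcripts, with sums over the testis list of 1685 to 4375 against at most 464 in all other mice. HFoleic 6 stood apart by liver markers, with a mean log2 level of 12.9 against 9.11 to 10.23 in the other HFoleic mice. That level was 12.02 in HFepa 5, 11.79 in HFepa 6 and 11.71 in Ref 2. Values are on the log2 scale of the quantile-normalized median intensity. A gene was read by its brightest probe, and called when the adjusted p of the limma test over all probes was under 0.05.

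Under the high-fat diet in the control lineage, the subunit genes that passed the test were mostly lower, by small amounts, and most of these calls were lost without the arrays of slide 2. In HFoleic vs. Ref 24 of the 81 genes were called lower and 2 higher, and 71 had a log2 fold change below 0, as did 56.8% of all genes. The share called lower was 29.6%, against 16.7% of all genes tested, but without slide 2, an alternative added after seeing the data, it was 7.41% against 10.7%, below that of all genes. With all arrays, the share called in either direction, 32.1%, was near that of all genes, 31.8%. The median log2 fold change was −0.18 over the subunit genes and −0.04 over all genes. The groups did not overlap in 5 genes that were lower (7.08% of all genes were lower without overlap) and in 2 that were higher (6.92%). Of the 81 log2 fold changes 78 lay between −0.5 and 0.5, with a median standard error (SE) of 0.09.

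By complex, the counts were as follows, beside 16.7% of all genes called lower and 15.2% higher. In complex I 15 of 38 genes were called lower (39.5%) and 1 higher, with a median log2 fold change of −0.19. In complex III 3 of 9 genes were lower (33.3%) and none higher (−0.22). In complex V 5 of 18 were lower (27.8%) and none higher (−0.18). Complex IV had 1 gene of 16 called lower (6.25%), 1 called higher and 14 not called, with a median of −0.09. The difference between complexes was not tested.

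**Figure D1:**
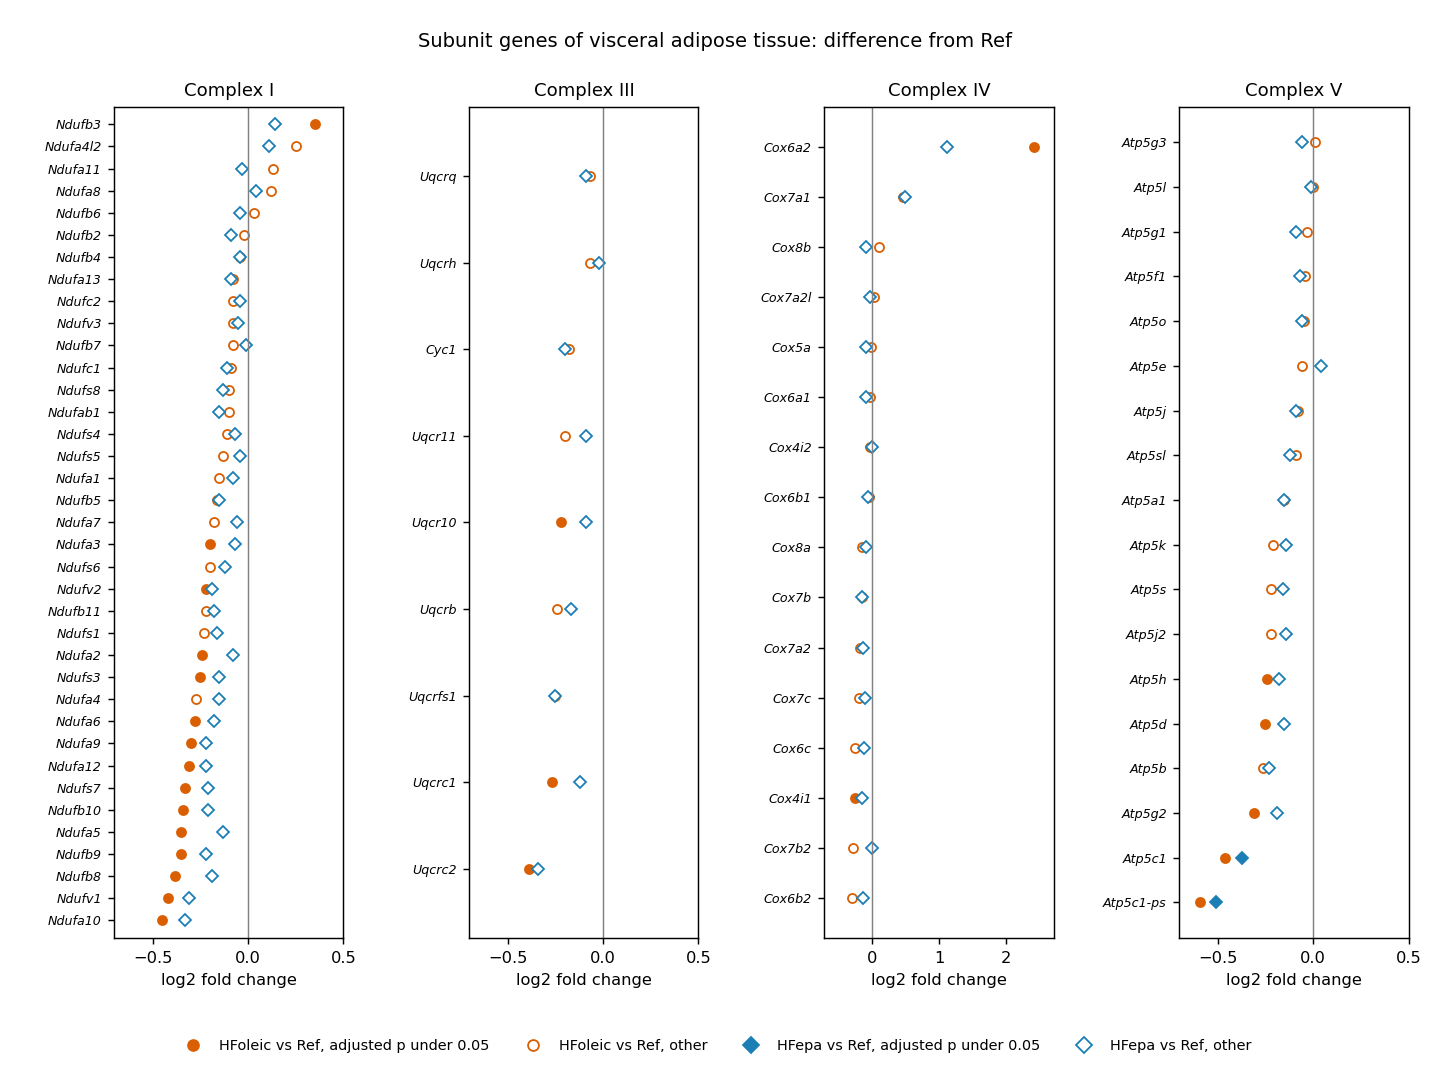
Log2 fold change (horizontal axis, 1 row per gene) of 80 subunit genes in HFoleic vs. Ref (circles) and HFepa vs. Ref (diamonds), one panel per complex, with filled symbols for genes called at an adjusted p under 0.05; the axis of complex IV is wider. Most symbols sit a little left of 0, Cox6a2 sits far right at 2.41 in HFoleic vs. Ref, and the filled diamonds are Atp5c1 and Atp5c1-ps.

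The mean level of a complex in a mouse was taken over its genes, each relative to its own mean over all mice. For complex I the level ran from −0.11 to 0.26 in Ref (median 0.08), from −0.18 to 0.08 in HFoleic (median −0.12) and from −0.30 to 0.14 in HFepa (median 0.01). The groups overlapped. Ref 5 was the highest Ref mouse and Ref 3 the lowest in each of the 4 complexes, and HFepa 1, the mouse with the highest macrophage sum, was the lowest of its group in complexes I, III (−0.33) and V (−0.27). HFoleic 6, with the highest liver marker level and macrophage sum of its group, was the lowest HFoleic mouse in complexes I, III and V. In complex V the levels were −0.06 to 0.23 in Ref and −0.18 to 0.10 in HFoleic. For complex IV the mean level was higher in HFoleic (0.04 ± 0.08, SD, n = 6) than in Ref (−0.03 ± 0.09, SD, n = 6), opposite in sign to the median log2 fold change, and the mean takes in the large difference of Cox6a2. In bulk tissue, fewer adipocytes and less of these RNAs per cell cannot be told apart, and the median log2 fold change was −0.23 for the white adipocyte markers beside −0.18 for the subunit genes. These markers did not move as one: 4 were called lower, while Adipoq (−0.03), Cidec (0.02) and Fabp4 (0.02) hardly differed. The part of the adipocyte, macrophage and liver marker differences in these values was not tested.

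**Figure D2:**
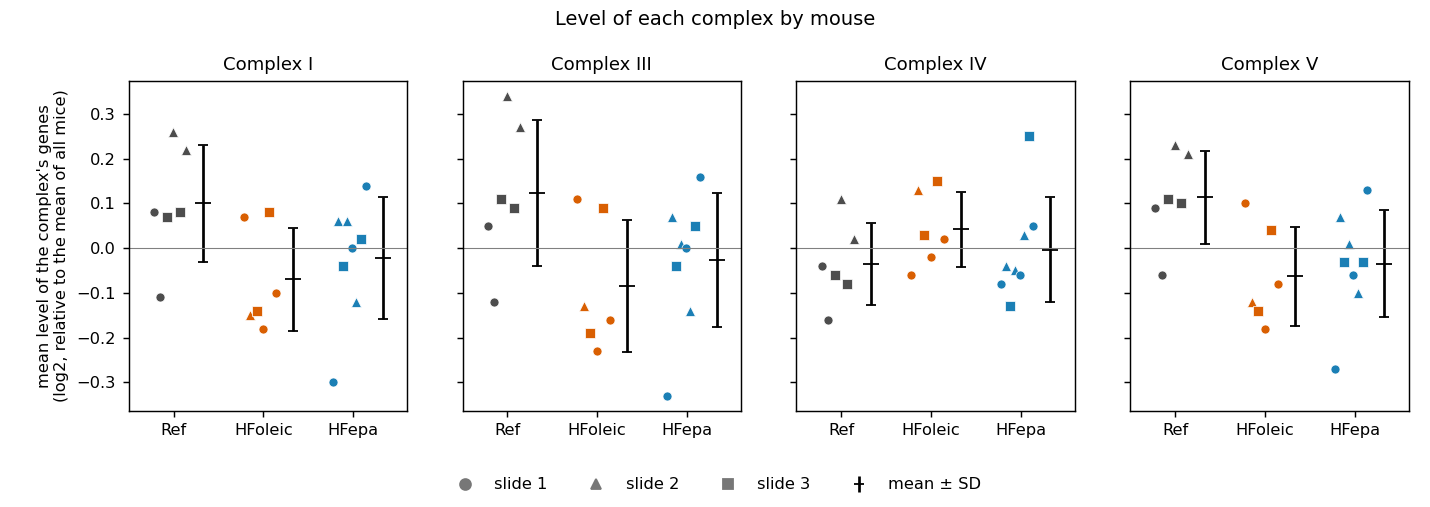
Mean log2 level of the genes of each complex per mouse, relative to the mean of all mice, with a symbol per slide and the mean ± SD of each group. The Ref mice of slide 2 (triangles) are highest in complexes I, III and V, HFepa 1 is lowest at −0.30 in complex I, and the groups overlap in every panel.

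The difference was largest on slide 2, which holds Ref 5, Ref 7 and, of the HFoleic mice, only HFoleic 4. The median log2 difference of the 81 genes was −0.37 on slide 2, against −0.06 on slide 1 and −0.12 on slide 3, where all genes had −0.06, −0.02 and −0.03 respectively. It was below 0 on each slide in each of the 4 complexes. With the slide as a block 21 genes were called lower (25.9%, against 17.4% of all genes). Without slide 2, 6 were lower and 2 higher, 9.88% of the subunit genes against 22.3% of all genes called. Among those 8 were Ndufa6, Ndufb3, Cox6a2, Atp5c1, Atp5c1-ps, Atp5d and Atp5g2. Leaving out HFoleic 4 alone left 16 genes called lower (19.8%, against 13.3% of all genes), and leaving out HFoleic 1 gave 32 (39.5%, against 18.4%).

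**Figure D3:**
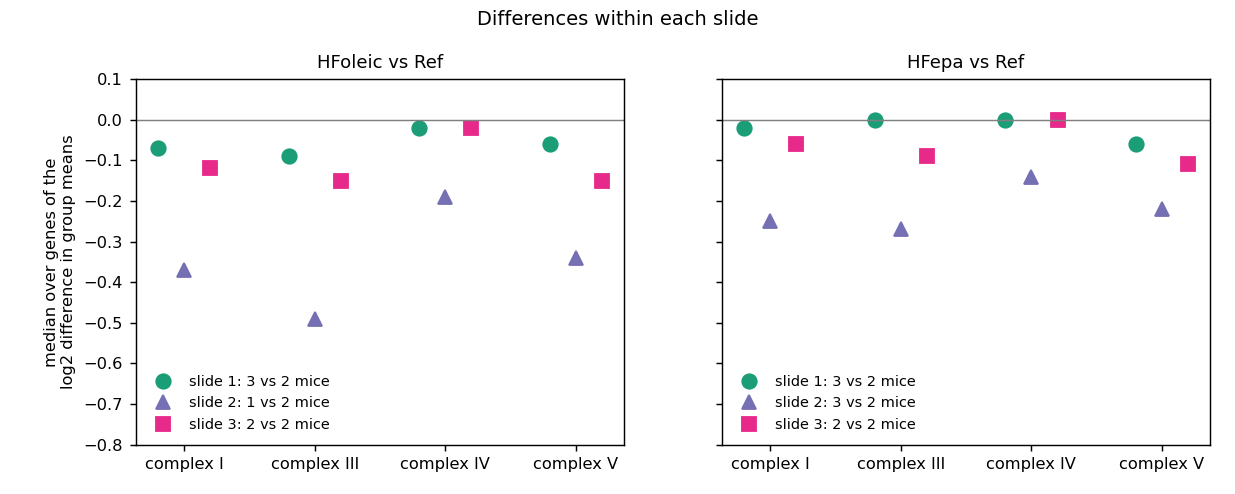
Median over the genes of a complex of the log2 difference in group means within each slide, for HFoleic vs. Ref and HFepa vs. Ref; the legend gives the number of mice. Slide 2 is lowest in every complex, from −0.49 (complex III) to −0.19 (complex IV) in HFoleic vs. Ref, and the other slides lie at or between −0.15 and 0.

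Promoter windows of the genes were searched because many of these genes are known targets of NRF1, of ETS factors such as GABP, of YY1 and of the ERR receptors, and because 24 of them moved the same way. A window holds 250 bases before and 50 after the start in RefSeq (GRCm38.p6), and 66 of the 81 genes have at least 1, with 72 windows in all. The NRF1 motif, whose letters are among the capitals in the windows below, was on either strand in 22.2% of the windows, against 4.6% of 32851 windows of all genes. CCGGAAG of the ETS factors was in 19.4% against 8.86%, AAGATGGCG of YY1 in 12.5% against 1.4%, and TNAAGGTCA of the ERR receptors in 2.78% against 1.28%. Of 21 windows of genes called lower in HFoleic vs. Ref, 7 held the NRF1 motif (33.3%), 2 the ETS motif (9.52%), 2 the YY1 motif (9.52%) and 0 the ERR motif. A plus-strand and a minus-strand match can cover the same bases, and a match describes letters, not binding.

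The windows below were chosen to show the motif letters, in capitals, and are not typical: of 18 genes called lower that have a window, 6 hold the NRF1 motif. Ndufa6, Uqcrc1 and Atp5g2 were called lower in HFoleic vs. Ref in complexes I, III and V, Cox6a1 is the complex IV subunit paired with Cox6a2 as its ubiquitous form and was not called, and Ndufb3 is the complex I gene called higher. The capitals are the NRF1 motif in the first 4, and in Cox6a1 also 1 ETS motif in its minus-strand letters (CTTCCGG). The Ndufb3 window holds none of the 4 motifs.
Ndufa6 (chr15:82354242-82354541, minus strand): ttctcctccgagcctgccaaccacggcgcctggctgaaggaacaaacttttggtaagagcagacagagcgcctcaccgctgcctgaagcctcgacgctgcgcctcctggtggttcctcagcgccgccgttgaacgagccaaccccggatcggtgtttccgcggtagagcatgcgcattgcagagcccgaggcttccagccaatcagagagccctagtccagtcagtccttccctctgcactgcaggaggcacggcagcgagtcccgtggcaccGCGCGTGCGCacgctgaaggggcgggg
Uqcrc1 (chr9:108936398-108936697, plus strand): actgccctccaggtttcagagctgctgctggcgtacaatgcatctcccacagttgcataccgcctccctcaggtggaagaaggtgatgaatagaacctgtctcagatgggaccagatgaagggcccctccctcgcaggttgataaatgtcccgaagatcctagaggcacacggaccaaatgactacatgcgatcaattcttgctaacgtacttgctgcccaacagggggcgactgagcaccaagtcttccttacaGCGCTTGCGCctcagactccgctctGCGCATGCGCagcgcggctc
Atp5g2 (chr15:102670998-102671297, minus strand): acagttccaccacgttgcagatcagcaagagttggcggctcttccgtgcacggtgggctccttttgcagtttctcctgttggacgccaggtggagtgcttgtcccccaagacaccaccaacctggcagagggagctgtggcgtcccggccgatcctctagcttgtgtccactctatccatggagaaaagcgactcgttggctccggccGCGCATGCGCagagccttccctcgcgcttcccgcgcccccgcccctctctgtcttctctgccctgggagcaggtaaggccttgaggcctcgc
Cox6a1 (chr5:115348909-115349208, minus strand): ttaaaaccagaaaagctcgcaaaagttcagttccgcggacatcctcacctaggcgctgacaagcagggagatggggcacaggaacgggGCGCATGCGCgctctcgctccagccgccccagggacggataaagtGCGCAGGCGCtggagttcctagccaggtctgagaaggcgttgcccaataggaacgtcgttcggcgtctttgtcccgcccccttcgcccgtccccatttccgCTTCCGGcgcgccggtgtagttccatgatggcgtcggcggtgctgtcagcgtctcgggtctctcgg
Ndufb3 (chr1:58586147-58586446, plus strand): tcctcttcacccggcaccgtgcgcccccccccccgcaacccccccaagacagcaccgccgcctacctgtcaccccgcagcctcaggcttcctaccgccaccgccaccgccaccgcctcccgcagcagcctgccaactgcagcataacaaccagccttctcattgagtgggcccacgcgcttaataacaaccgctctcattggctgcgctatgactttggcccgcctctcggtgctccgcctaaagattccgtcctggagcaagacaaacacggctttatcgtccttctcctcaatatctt

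Complex I is the entry point for NADH and the largest of the complexes. Its nuclear core subunits carry the flavin and the iron-sulphur clusters. Of these, Ndufv1, which binds NADH, was lower in HFoleic mice (−0.42, adjusted p = 0.00899), and so were Ndufs7 (−0.33, adjusted p = 0.0206), Ndufs3 (−0.25, adjusted p = 0.0369) and Ndufv2 (−0.22, adjusted p = 0.0481), each with overlap between HFoleic and Ref. Ndufs1 (−0.23, adjusted p = 0.112) and Ndufs8 (−0.10, adjusted p = 0.276) were not called.

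Ndufa6 is an accessory subunit whose promoter window is shown above. It had the narrowest Ref range of the genes in the plot by mouse, from 15.30 to 15.42, and lay between 14.96 and 15.20 in HFoleic and between 14.92 and 15.29 in HFepa mice. Both high-fat groups were below every Ref mouse. The log2 fold change was −0.28 (SE 0.07, adjusted p = 0.00337) in HFoleic vs. Ref and −0.18 (SE 0.06, adjusted p = 0.104) in HFepa vs. Ref, the latter not called in spite of the gap.

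Ndufb3, an accessory subunit of the membrane arm, went the other way. It ran from 14.41 to 14.93 in Ref (median 14.70), from 14.95 to 15.15 in HFoleic (15.05) and from 14.55 to 14.97 in HFepa (14.88). HFoleic mice were above all Ref mice, HFoleic 5 only just above Ref 5, and HFepa mice were spread over the Ref range and just into that of HFoleic. The log2 fold change was 0.35 (SE 0.08, adjusted p = 0.0043) in HFoleic vs. Ref, and it was called in 14 of 14 alternatives and with each array left out.

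Of the other complex I genes with the smallest p, Ndufa10 (−0.45, adjusted p = 0.00565) and Ndufb10 (−0.34, adjusted p = 0.00739) were lower with some overlap between HFoleic and Ref. Ndufa2, the gene of a small matrix-arm subunit, was also lower (−0.24, adjusted p = 0.00864). Ndufab1, the mitochondrial acyl carrier protein that is also a subunit of complex I, had −0.10 (adjusted p = 0.478). Ndufa4l2, a paralogue of Ndufa4 known to be induced by hypoxia, had 0.25 (adjusted p = 0.0624), and Ndufa4 itself −0.27 (adjusted p = 0.0582). Ndufa13 was read by a bright probe with −0.08 (adjusted p = 0.478), and a dim one for another transcript had −0.68 (adjusted p = 0.00169).

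Complex III passes electrons from ubiquinol to cytochrome c. All 9 log2 fold changes were below 0 in HFoleic vs. Ref, from −0.39 to −0.07, and 3 were called. Uqcrc2, a core protein of the matrix side, ran from 13.92 to 14.46 in Ref (median 14.14), from 13.54 to 14.05 in HFoleic (13.79) and from 13.39 to 14.05 in HFepa (13.92). The groups overlapped at the Ref low end, and the log2 fold change was −0.39 (SE 0.12, adjusted p = 0.0156). The other core protein, Uqcrc1, whose window above holds 3 matches of the NRF1 motif over both strands, had −0.27 (adjusted p = 0.0148) and the small subunit Uqcr10 −0.22 (adjusted p = 0.027). The 2 redox subunits were not called: Cyc1, cytochrome c1, had −0.18 (adjusted p = 0.238) and Uqcrfs1, the Rieske iron-sulphur protein, −0.25 (adjusted p = 0.148). Uqcr11 had −0.20 (adjusted p = 0.0926). None of the 9 was among the genes called without slide 2.

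Complex IV reduces oxygen, and several of its nuclear subunits exist in a ubiquitous form and a form of muscle, brown fat, lung or testis. Of 6 ubiquitous forms counted with complex IV, Cox4i1 was lower and the other 5 were not called, with a median of −0.15. Cox4i1, needed for assembly of the complex, ran from 16.50 to 16.73 in Ref, from 16.25 to 16.54 in HFoleic and from 16.26 to 16.70 in HFepa mice. HFoleic and Ref overlapped narrowly, with −0.25 (SE 0.07, adjusted p = 0.0139). Of 6 tissue-restricted forms tested, Cox6a2 was higher and 5 were not called.

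Cox6a2, the form of subunit VIa known from heart and skeletal muscle, showed the largest difference of the 81 genes. Its level was 6.71, 6.15, 6.24, 6.0, 6.05 and 6.35 in Ref 2 to Ref 7. In HFoleic 1, 4, 5, 6, 7 and 8 it was 7.05, 9.86, 8.68, 9.02, 8.52 and 8.80. In HFepa 1 to HFepa 8 it was 8.99, 7.20, 6.51, 7.26, 6.42, 8.70, 7.30 and 6.54. Every HFoleic mouse was above every Ref mouse, HFoleic 1 the least, and HFepa mice split into HFepa 1 and HFepa 6 near the HFoleic values and the other 6 between 6.42 and 7.30.

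The log2 fold change of Cox6a2 was 2.41 (SE 0.44, adjusted p = 0.00081) in HFoleic vs. Ref, an intensity of 530% of Ref. It was 1.12 (SE 0.41, adjusted p = 0.131) in HFepa vs. Ref. Over the alternatives it lay between 2.09 and 3.10 in HFoleic vs. Ref and was called in all 14. The Ref values of Cox6a2 were low, near those of Ucp1 in Ref (5.28 to 6.19), and the intensity carries no background subtraction. The percentage is therefore a ratio to a low intensity. High values of Cox6a2 fell in mice with a high macrophage sum: HFoleic 1 had the lowest sum of its group (164585) and the lowest Cox6a2, and HFepa 1 and HFepa 6 the highest of theirs. Of 10 markers of lipid-associated macrophages 9 were higher in HFoleic vs. Ref (median 3.09). Gpnmb, Trem2, Mmp12 and Atp6v0d2 among them were likewise lowest in HFoleic 1 within HFoleic and highest in HFepa 1 and HFepa 6 within HFepa. Spp1 and Lpl of that list did not follow. Spp1 was 9.06 in HFoleic 7 and 9.49 in HFoleic 1, and 10.64 in HFepa 4 against 10.02 in HFepa 6. Lpl was highest within HFepa in HFepa 8 (17.95). The part of macrophages in the Cox6a2 value was not tested. Of 10 skeletal muscle markers 9 were above background and Ckm, the muscle creatine kinase, was not, and their sum was 2727 to 7727 in Ref, 2406 to 6439 in HFoleic and 2661 to 7395 in HFepa mice. Of the 9, Pvalb, the calcium buffer parvalbumin, was higher in HFoleic than in Ref without overlap (2.50, SE 0.45, adjusted p = 0.00072). Myh1, a myosin heavy chain, was so as well (0.41, adjusted p = 0.00299). Its intensity was low, 5.55 to 5.73 in Ref and 5.81 to 6.23 in HFoleic. The other 7, with the myosin Myh4 and the calcium pump Atp2a1 among them, were not called. Of these, Acta1, the brightest of the list with a Ref mean of 11.7, lay in the other direction (−1.02, adjusted p = 0.0846). The median over the 9 was −0.01. Cox6a1, the partner of Cox6a2, ran from 17.78 to 18.03 in Ref, from 17.82 to 17.95 in HFoleic and from 17.70 to 17.99 in HFepa. The log2 fold change of Cox6a1 was −0.02 (SE 0.06, adjusted p = 0.791) in HFoleic vs. Ref. The probe of Cox6a2 lies at chr7:135349160-135349219 (mm9).

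Cox7a1 and Cox8b are forms of muscle and brown fat, and 1 mouse set their highest values. In HFepa 7 Cox7a1 was 13.06 and Cox8b 13.59, whereas the other HFepa mice lay at 10.74 to 11.71 and 11.21 to 11.96. Ucp1, the uncoupling protein of brown and beige fat, was 12.40 in HFepa 7 and 5.09 to 6.23 in the other 19 mice, and Cidea was 14.01 in HFepa 7. Cox8b was also high in Ref 5 (13.04) and HFoleic 4 (12.60), where Ucp1 was 5.52 and 5.71. The summed brown and beige list, which holds both genes, was 44734 in HFepa 7 and at most 17259, in Ref 5, elsewhere. Neither gene was called: in HFoleic vs. Ref the log2 fold changes were 0.46 (adjusted p = 0.17) for Cox7a1 and 0.11 (adjusted p = 0.84) for Cox8b.

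Of the forms known from testis, Cox6b2 was highest in Ref 6 (8.73) and Ref 3 (8.71), both among the mice with testis transcripts, and ran from 7.90 to 8.33 in HFoleic, where HFoleic 5, with the highest testis sum, had the 8.33. HFepa 4, the other mouse with such transcripts, had 8.34, below HFepa 2 (8.56) and HFepa 3 (8.40), which lacked them. Its log2 fold change was −0.29 (adjusted p = 0.0611). Cox7b2 was highest in HFepa 5 (8.39) and HFepa 8 (8.06), which did not hold such transcripts, with −0.28 (adjusted p = 0.274). Cox4i2, the form of subunit IV known from lung, ran from 8.27 to 8.57 in Ref, from 8.28 to 8.52 in HFoleic and from 8.12 to 8.60 in HFepa. The 3 ranges of Cox4i2 lay over each other.

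**Figure D4:**
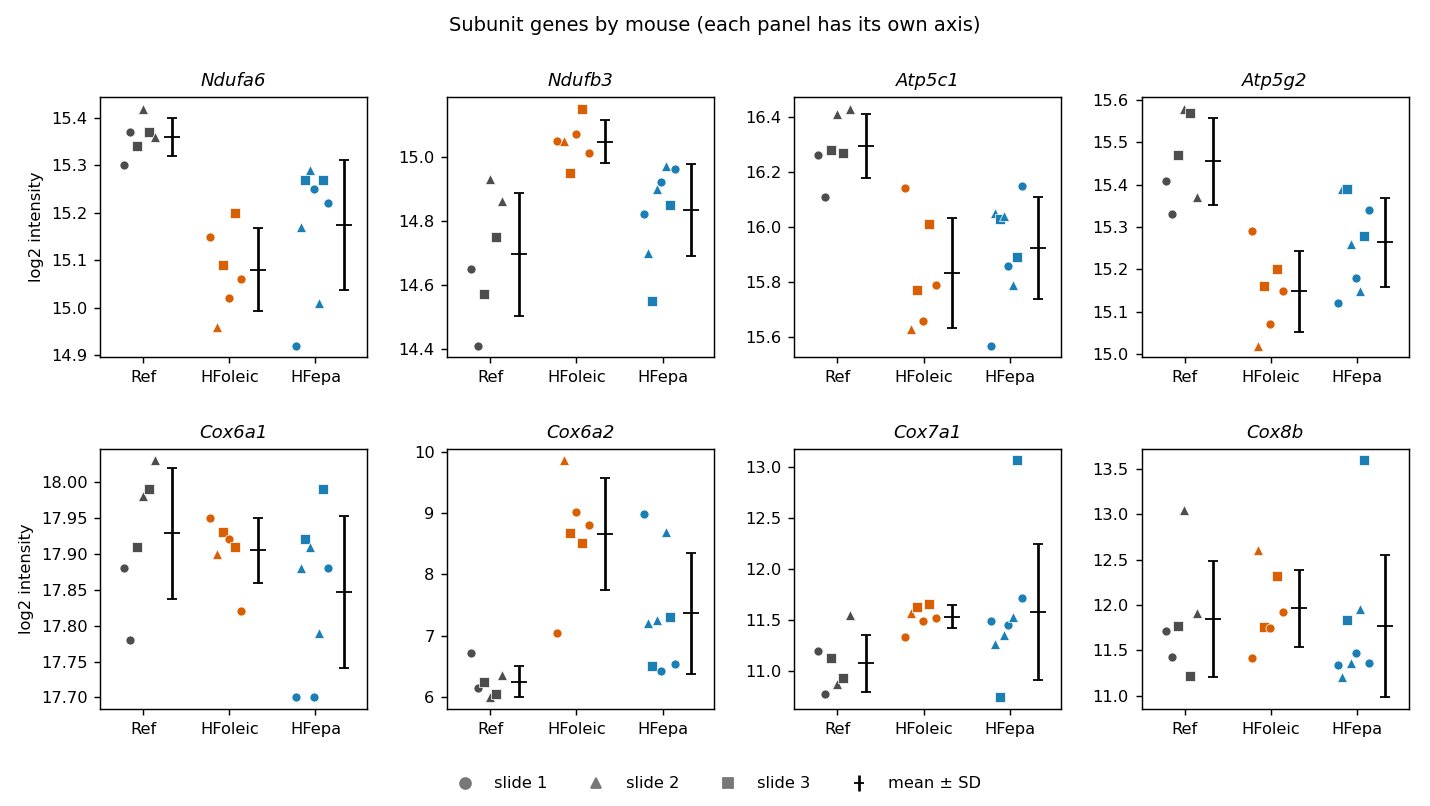
Log2 intensity of 8 subunit genes per mouse, with a symbol per slide and the mean ± SD per group; each panel has its own axis. HFoleic lies below Ref in Ndufa6 and Atp5g2 and above it in Ndufb3 and Cox6a2, the Cox6a1 groups lie over each other, and HFepa 7 stands alone at the top of Cox7a1 and Cox8b.

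Complex V makes ATP with a soluble catalytic head and a ring of c subunits in the membrane. Of the head, the gamma subunit gene Atp5c1, which forms the central stalk, ran from 16.11 to 16.43 in Ref (median 16.27), from 15.63 to 16.14 in HFoleic (15.78) and from 15.57 to 16.15 in HFepa (15.96). Only the highest mouse of each high-fat group reached the lowest Ref mouse, Ref 3. The log2 fold change was −0.46 (SE 0.10, adjusted p = 0.00219) in HFoleic vs. Ref, 72.9% of the Ref level, and its probe lies at chr2:9977718-9977777 (mm9).

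The pseudogene name Atp5c1-ps showed a like pattern on another probe, from 12.69 to 12.95 in Ref, from 11.99 to 12.52 in HFoleic and from 11.86 to 12.61 in HFepa. All high-fat mice were below all Ref mice, with −0.59 (SE 0.11, adjusted p = 0.00087) in HFoleic vs. Ref. Its probe may take up Atp5c1 RNA, and these 2 names may not be independent, although each is counted. Without Atp5c1-ps, 23 of 80 subunit genes were lower (28.8%), with 4 in complex V. The catalytic beta subunit Atp5b had −0.26 (adjusted p = 0.0632) and the alpha subunit Atp5a1 −0.15 (adjusted p = 0.205), both not called.

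Atp5d, the delta subunit of the stalk, had a narrow range in Ref, 13.68 to 13.78, and ran from 13.41 to 13.62 in HFoleic and from 13.46 to 13.81 in HFepa mice. HFoleic was below Ref without overlap and HFepa 2 was above every other mouse. The log2 fold change was −0.25 (SE 0.06, adjusted p = 0.00302). Of the peripheral stalk, which holds the head in place, Atp5h had −0.24 (adjusted p = 0.0328) and Atp5o −0.05 (adjusted p = 0.725).

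The c subunit is the same mature protein from 3 genes. Atp5g2 ran from 15.33 to 15.58 in Ref, from 15.02 to 15.29 in HFoleic and from 15.12 to 15.39 in HFepa. HFoleic did not overlap Ref, HFepa did, and the log2 fold change was −0.31 (SE 0.06, adjusted p = 0.00191) in HFoleic vs. Ref. Atp5g3 had 0.01 (SE 0.09, adjusted p = 0.947), and the brightest Atp5g1 probe −0.03 (SE 0.06, adjusted p = 0.746). A second Atp5g1 probe of similar brightness gave −0.44 (SE 0.07, adjusted p = 0.000448), so the gene's result depended on the probe. Over all 81 genes 31 had several probes, of which 16 had the same call from all and none had opposite calls, and 8 genes were called lower only by a probe other than the brightest.

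In HFepa vs. Ref 2 of the 81 genes were called, both lower and both for the gamma subunit: Atp5c1 (−0.37, SE 0.09, adjusted p = 0.0411) and Atp5c1-ps (−0.51, SE 0.10, adjusted p = 0.0203). That is 2.47% of the subunit genes, against 2.46% of all genes called in either direction and 1.42% called lower. Without Atp5c1-ps it is 1 of 80 genes (1.25%). The second Atp5g1 probe, which does not stand for its gene, was also called lower (−0.27, SE 0.06, adjusted p = 0.0386). The median log2 fold change was −0.11, against −0.02 over all genes, and 73 of the 81 values were below 0, as were 55% over all genes. At an unadjusted p under 0.05, 20 genes passed (24.7%), against 21.6% of all genes. Groups did not overlap in Ndufa6 and Atp5c1-ps, both lower, against 0.671% of all genes. By complex the medians were −0.12 for I, −0.12 for III, −0.08 for IV and −0.14 for V. Within slides the median over all 81 genes was −0.02, −0.24 and −0.07, and without slide 2 no gene was called. Both comparisons with Ref share the same 6 Ref arrays, so that a low or high Ref mouse moves both.

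Atp5c1 was called with 8 of the 20 arrays left out in turn, at adjusted p from 0.0264 to 0.0917, and Atp5c1-ps with all 20.

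In HFepa vs. HFoleic none of the 81 genes was called by limma, and none of all 25619 genes either (0%), while 4 subunit genes (4.94%) had an unadjusted p under 0.05, against 20.8% of all genes. The median log2 fold change was 0.05, against 0.01 over all genes, and 25 of the 81 values were below 0, as were 46.3% over all genes. The smallest p values were those of the genes called higher in HFoleic vs. Ref, and both missed the threshold: Cox6a2 with −1.29 (SE 0.41, adjusted p = 0.131) and Ndufb3 with −0.21 (SE 0.08, adjusted p = 0.152). With array weights Cox6a2 was called (−1.47, adjusted p = 0.0202), and also when HFoleic 1 or HFepa 1 was left out. In these fits 12.1%, 4.33% and 7.71% of all genes were called, and Cox6a2 was the 1 subunit gene (1.23%). For 80 of the 81 genes the log2 fold change lay between −0.5 and 0.5 with a median SE of 0.08. A missed threshold does not show that the lineages were alike.

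The other genes of the pathway were read from lists in the same fit. Beside each list count that follows, 16.7% of all genes tested were called lower and 15.2% higher in HFoleic vs. Ref. The subunits encoded in mitochondrial DNA had 3 of 11 called lower in HFoleic vs. Ref and none higher, with a median of −0.24. ND5, of the proton-pumping arm of complex I, ran from 14.50 to 15.18 in Ref and from 13.81 to 14.47 in HFoleic, without overlap (−0.69, SE 0.17, adjusted p = 0.00531). ATP8 (−0.60, adjusted p = 0.00988) and ND4L (−0.50, adjusted p = 0.0131) were the others. Of complex II, which feeds electrons from succinate, Sdha (−0.45, adjusted p = 0.00432) and Sdhb (−0.36, adjusted p = 0.0118) were lower, 2 of 5 genes with cytochrome c. Of 21 genes of the TCA cycle and pyruvate entry 7 were lower and 1 higher (median −0.15), led by Pdha1 of pyruvate dehydrogenase (−0.63, adjusted p = 0.00224).

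The assembly factors did not move as one. For complex I 2 of 13 were lower, Acad9 (−0.27) and Nubpl (−0.29), and for complex III 2 of 6, Ttc19 (−0.36) and Uqcc3 (−0.27). For complex IV 5 of 20 were higher and 1 lower, and for complex V 2 of 4 were higher and 1 lower. Coa4 ran from 8.36 to 8.80 in Ref and from 8.96 to 9.67 in HFoleic, without overlap (0.71, SE 0.18, adjusted p = 0.00545), and Cox10, which makes haem O for the complex, had 0.32 (adjusted p = 0.00441). Surf1, a known assembly factor, was the complex IV factor that fell (−0.34, adjusted p = 0.00901). Atpif1, the inhibitor of ATP synthase that acts when it runs in reverse, was higher (0.51, SE 0.14, adjusted p = 0.00831).

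Of 14 regulators of mitochondrial biogenesis 4 were lower and 1 higher. Nrf1, the factor of the motif searched above, ran from 10.14 to 10.55 in Ref and from 9.68 to 10.06 in HFoleic mice, without overlap (−0.39, SE 0.09, adjusted p = 0.00324). Yy1 was lower as well (−0.39, adjusted p = 0.002), and so was Ppargc1a, the coactivator PGC-1 alpha (−0.71, SE 0.23, adjusted p = 0.0213). Esrra, the ERR alpha receptor, was higher (0.52, SE 0.10, adjusted p = 0.00123), and Tfam, which packages mitochondrial DNA, was not called (−0.17, adjusted p = 0.0703). Of 18 genes for carriers, import and the inner membrane 2 were lower and none higher (median −0.04), and of 77 mitochondrial ribosomal proteins 19 were lower and 12 higher (median 0). In 18 cytosolic ribosomal proteins, taken as a housekeeping set, 1 was lower and 1 higher (median 0.03). No gene of any of these lists was called in HFepa vs. Ref or in HFepa vs. HFoleic, where 2.46% and 0% of all genes were.

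**Figure D5:**
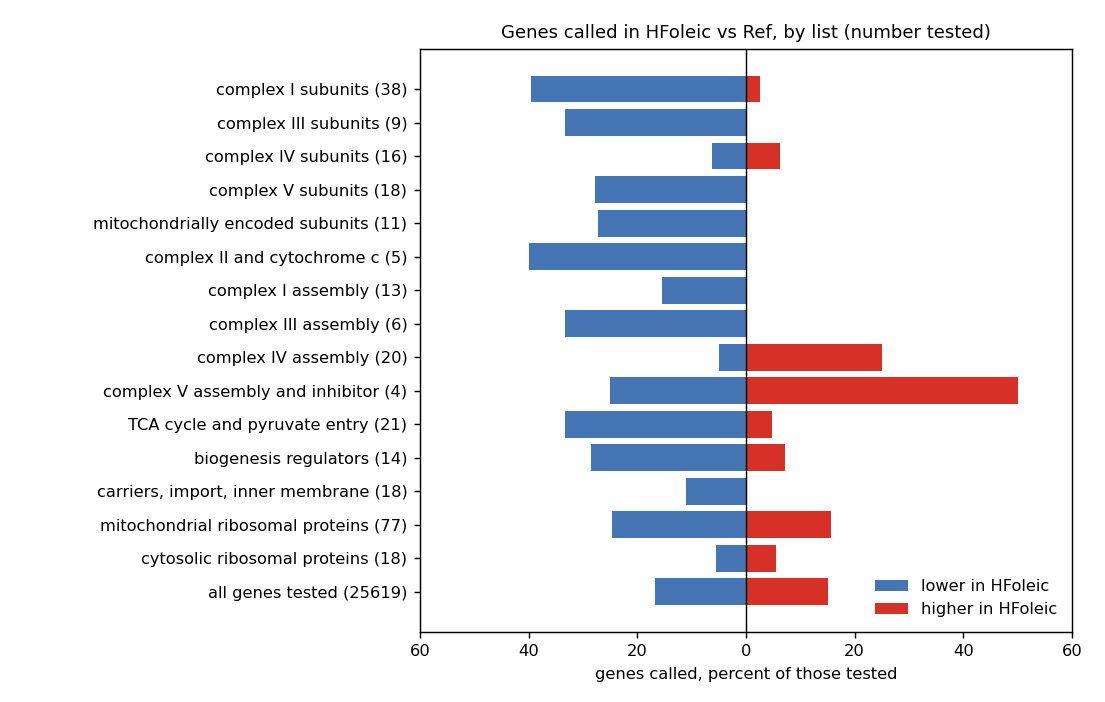
Percent of the genes tested in each list that were called lower (bars to the left) or higher (bars to the right) in HFoleic vs. Ref, with the number tested in brackets and all 25619 genes at the bottom (16.7% lower, 15.2% higher). Complexes I, III and V lie mostly to the left, complex IV has 1 gene on each side, and the assembly factors of complexes IV and V lie mostly to the right.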

How the data were processed

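Visceral adipose tissue of 20 mice was measured on 1-colour Agilent arrays, 1 array per mouse. The authors extracted linear spot intensity with Agilent Feature Extraction (version 10.10.1.1 per the processing notes), and as deposited the median and mean intensity carry no background subtraction or scaling between arrays, whereas the processed intensity was background-subtracted by the software. A second table of log2 values, deposited by the authors after quantile normalization of filtered probes, served as an alternative.

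Control spots and spots marked as non-uniform or as outliers were left out. Of 56605 distinct probes, 39392 that the software called well above background on at least 6 of the 20 arrays were tested. The log2 median intensity was quantile normalized and fitted with 1 mean per group over all arrays in limma 3.58.1 (R 4.3.3), which follows the authors' methods, and p was adjusted by Benjamini-Hochberg over all tested probes, with a threshold of 0.05. Every adjusted p is from that fit. Each gene was read by its brightest probe (highest mean of the 20 arrays), and gene names are those of the files. The fit was tested on simulated data. No spot was saturated, and the number of mice limits the precision. No column of an unknown sample was present.

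Subunit genes, lists and named genes were all chosen with earlier results of these data known. Named were the 6 genes of complex I and the 4 of each other complex with the smallest p in HFoleic vs. Ref, the genes called in the other comparisons or the 2 with the smallest p, the isoform and c subunit lists, and 3 genes of each other list with the main regulators. The result of 1 complex I gene is not reported here, though it is in the counts. Other subunits, Surf1 and single marker genes were named for their role after their values were seen. Replicate numbers did not pair the mice: deviations of same-numbered mice correlated at −0.59 to 0.56 over 16 pairs (median −0.08). Alternatives changed the signal, the background correction, the scaling, the filter, the probe of a gene, the blocks, the weights and the arrays in the fit. Promoter windows were matched by RefSeq symbol (78 genes) or synonym (3). No protein sequence was used here. Plots were drawn with matplotlib 3.10.9.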

Additional observations from a re-analysis of the deposited data

Results flagged for a closer look

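In 7 of 108 groups of mice tested, the highest or lowest mouse stood apart by a gap that was large for the range of its group, about as many as chance gives, which marks about 1 group in 20. Atp5d was high at 13.62 in HFoleic 1 (next 13.48) and at 13.81 in HFepa 2 (next 13.60). Cox7a1 at 13.06 and Cox8b at 13.59 were high in HFepa 7, the mouse with Ucp1 at 12.40, and this mouse also set the highest complex IV level of its group, 0.25 (next 0.05). Cox6b1 at 12.32 and Cox7b at 13.66 were low in HFepa 1, the HFepa mouse with the highest macrophage sum (345261).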

How the results depend on the processing

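In HFoleic vs. Ref, where 26 subunit genes were called and 24 of them lower, the counts were 41 and 38 with array weights and 8 and 6 without slide 2. With the replicate number as a block they were 14 and 12, though the numbers do not pair the mice. The subunit share called was 50.6%, 9.88% and 17.3% in these fits, against 42%, 22.3% and 21.1% of all genes, and the share lower was 46.9%, 7.41% and 14.8%, against 23%, 10.7% and 11.4%. The block ended the calls of Ndufa10, Uqcrc2, Uqcr10 and Cox4i1. With 1 array left out, 19 to 34 genes were called and 16 to 32 were lower. The 16 were without HFoleic 4, where complex I had 9 genes lower in place of 15, and complex V had 8 without HFoleic 1. Over all genes, 13.3% were lower without HFoleic 4 and 18.4% without HFoleic 1. Complex III had 3 genes lower, 6 with array weights, 5 with the processed signal, 1 with the replicate block and 0 without slide 2. Complex V had 5, 9 with the processed signal or array weights, 8 with the authors' table or the mean of probes, and 11 with the probe of smallest p. Over all genes, the share lower was 19% with the processed signal, 17.2% with the authors' table and 16.2% with the mean of probes. It was 18.9% with the probe of smallest p, which picks a probe by its p, and 18.8% with median centring. Complex I had 6 with the replicate block and 2 without slide 2. In complex IV, with 1 gene lower, the processed signal gave 4, array weights 3 and median centring 2, and the replicate block and the fit without slide 2 gave 0. In HFepa vs. Ref 2 genes were called. The count was 3 with array weights (3.7%, against 4% of all genes) or with the probe of smallest p (3.7%, against 3.06%). There was 1 (1.23%) without a filter on dim probes or with the slide as a block, against 1.12% and 1.91% of all genes. None was called with the replicate block, with the compared groups alone or without slide 2. With 1 array left out the count was 1 to 5. It was 1 without any single Ref mouse, without HFoleic 5 or 8, or without HFepa 1, 5, 6 or 7. That is 1.23%, against 0.39% to 4.7% of all genes in these fits. It was 5 without HFepa 3 (6.17%, against 6.99% of all genes). In HFepa vs. HFoleic the count was 0, 1 with array weights, and 0 to 1 with 1 array left out. No called value turned its direction under these alternatives, and the causes were not tested. The settings moved the median of all genes by under 0.1 on the log2 scale. The number of mice, 6 to 8 a group, limits the precision.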

Other observations

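Some marker genes, chosen here after their values were seen, had mouse patterns that can be set beside Cox6a2. Pvalb was 7.51 in HFoleic 1 and 9.26 to 10.41 in the other HFoleic mice, 9.27 and 9.18 in HFepa 1 and HFepa 6, and 6.41 to 7.24 in Ref. Otop1, a proton channel that stands in the brown and beige list, was higher in HFoleic vs. Ref as well (2.49, SE 0.50, adjusted p = 0.00139), with 10.49 in HFoleic 4 and 7.20 in HFoleic 1. Among HFepa mice Otop1 was highest in HFepa 7 (9.55), where Cox6a2 was 7.30, followed by HFepa 1 (9.30) and HFepa 6 (8.97). In that list Dio2, the deiodinase that activates thyroid hormone, was higher too (0.64, adjusted p = 0.013), while Ucp1 was not called (−0.29, adjusted p = 0.826).

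Single genes of the mitochondrial ribosome lay on opposite sides. Mrpl9 and Mrpl45 were lower in each HFoleic mouse than in every Ref mouse, at 10.66 to 11.05 against 11.12 to 11.31 for Mrpl9. Mrpl57 had 13.70 to 14.00 in HFoleic and 13.43 to 13.72 in Ref, with a narrow overlap. The succinyl-CoA ligase subunits parted as well, with Sucla2 higher (0.52, adjusted p = 0.00278) and Suclg2 lower (−0.59, adjusted p = 0.00415) in HFoleic vs. Ref.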
